A study of Homo sapiens with 15 samples.

Results

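The genes described are 10 regulators of the 2 main systems of heritable gene silencing. They are EZH2, EZH1, SUZ12 and EED of Polycomb repressive complex 2 (PRC2), BMI1 of Polycomb repressive complex 1 (PRC1), the DNA methyltransferases DNMT1, DNMT3A and DNMT3B, the methylation cofactor UHRF1, and TET1, which oxidises methylated cytosine. They were listed by name, and every probe set that names only that gene was taken, which gave 37 probe sets for the 10 genes among 18244 genes in all. All 10 were among the 12721 genes bright enough to be tested, and 26 of their 37 probe sets passed the same filter. RNA was measured on 15 arrays from 5 established human neuroblastoma lines, KELLY, NGP, BE(2)-C, SH-SY5Y and SK-N-AS, with 3 arrays each, as part of a study of MYCN-dependent transcription. No line was treated, all were grown in the same serum-supplemented medium, and each is a single tumour-derived line. From general knowledge of these lines, NGP, BE(2)-C and KELLY carry MYCN amplification and SK-N-AS and SH-SY5Y do not.

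PRC2 places methyl groups on lysine 27 of histone H3 and PRC1 ubiquitinates histone H2A, and both marks accompany silenced developmental genes. DNA methylation is placed on unmethylated CpG sites by DNMT3A and DNMT3B and copied to the daughter strand after replication by DNMT1, which UHRF1 brings to hemimethylated DNA, while TET enzymes start its removal. In neuroblastoma, EZH2 is known as a silencer of differentiation genes, and BMI1 as a repressor of the INK4 cell cycle inhibitors.

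The deposited intensities were not scaled to a common median, and the median of an array averaged 54.4 ± 2.65 in SH-SY5Y, 68.3 ± 1.37 in KELLY, 76.8 ± 2.98 in NGP, 103 ± 0.379 in BE(2)-C and 123 ± 3.23 in SK-N-AS (SD, n = 3 each). Because most genes shift together between some lines, each result is given on the deposited scale and on centred arrays, where the median of the tested genes is set equal. A difference was called at an adjusted p under 0.05 (limma, Benjamini-Hochberg) and a log2 difference of 1 or more in size. Correlations were at least 0.993 within a line and at most 0.892 between lines. MYCN itself followed the amplification status, with 9363 or more in each amplified line and at most 152 in the others. Of 9 sympathetic neuroblast markers tested, 5 were lower in SK-N-AS than in every other line on both scales, with CHGA at 53.3, ELAVL4 at 39.4 and DBH at 96.0 there. Not all followed on the deposited scale, where the mean of HAND2 was highest in SK-N-AS, at 11583. TH stood at 225 there, above SH-SY5Y at 91.1 and NGP at 125. The summed intensity of 11 markers of other cell types ran from 10858 to 11910 on the SK-N-AS arrays and from 345 to 1088 on the others, led by KRT18 and KRT8, and 0 of the 11 was at zero. The log2 difference between 3′ and 5′ probe sets of ACTB, a measure of RNA integrity, was 0.71 ± 0.06 in SK-N-AS and between 0.97 and 1.23 in the other lines. The same difference for GAPDH was 0.19 ± 0.05 in SK-N-AS and between 0.18 and 0.35 in the other lines, so SK-N-AS did not stand apart in it. SK-N-AS thus stands apart in several markers, overall brightness and the ACTB ratio, and their part in the SK-N-AS results below was not tested. Replicates carry a number in the labels but no culture or passage, so p-values measure only the spread between these arrays, which may be technical.

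**Figure D1:**
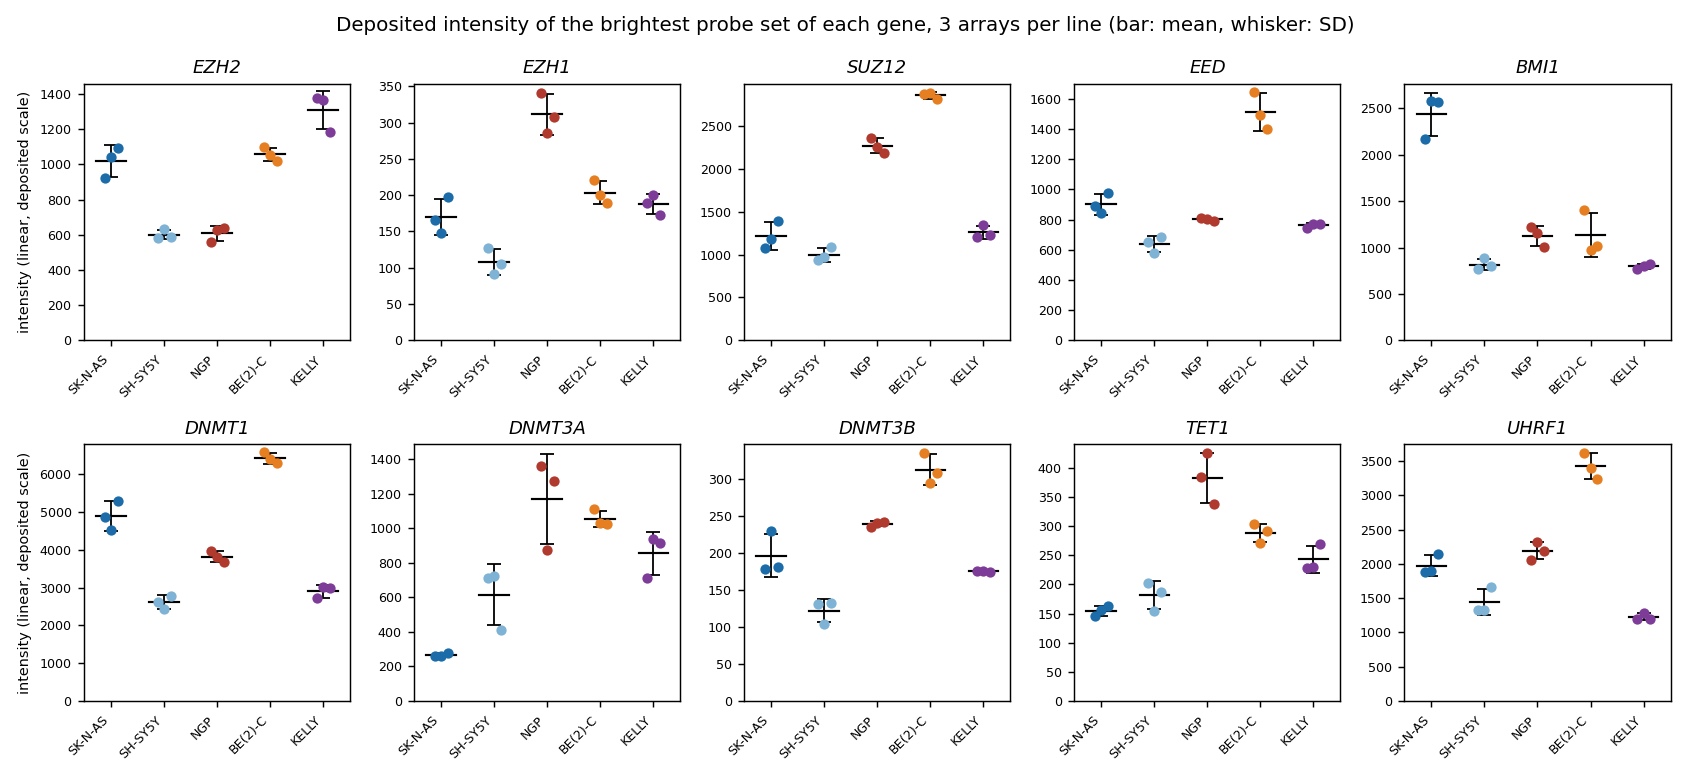
Deposited intensity (linear axis from 0) of the brightest probe set of each of the 10 genes, with cell lines along the other axis. Points are single arrays, bars the mean and whiskers the SD of 3 arrays. DNMT3A is lowest in SK-N-AS, with 259 to 277 against 409 or more elsewhere, and BMI1 is highest there, with 2171 to 2580 against 1404 or less elsewhere.

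DNMT3A, the enzyme that methylates new CpG sites in developing and differentiated cells, was lowest in SK-N-AS on both scales. The deposited intensities were 262, 259 and 277 in SK-N-AS, 1108, 1028 and 1026 in BE(2)-C, 1359, 874 and 1270 in NGP, 712, 936 and 913 in KELLY, and 714, 723 and 409 in SH-SY5Y. No SK-N-AS array overlapped any other line, the ranges of the remaining lines overlapped in part, and SH-SY5Y and NGP each had 1 array well below their other arrays. The level in SK-N-AS was lower than in SH-SY5Y by a log2 difference of 1.16 (SE 0.16, adjusted p = 2.79e-07), a 2.23-fold difference. Against NGP the difference was 2.10 (adjusted p = 7.87e-12), against BE(2)-C 1.98 (4.58e-11) and against KELLY 1.67 (5.68e-10), which are 4.30-fold, 3.95-fold and 3.18-fold. On centred arrays the same 4 differences were 2.49, 2.92, 2.18 and 2.78 on the log2 scale, or 5.63-fold, 7.57-fold, 4.54-fold and 6.88-fold (SE 0.20, adjusted p from 2.1e-10 to 1.41e-08). DNMT3A was 1 of 10 members lower in 1 line than in all 4 others by called differences on the deposited scale, a pattern that 9.53% of all tested genes showed. In bulk RNA, a lower level in every cell and fewer expressing cells cannot be told apart.

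A second DNMT3A probe set gave the same order of SK-N-AS against the rest with less spread within lines. It read 226, 209 and 219 in SK-N-AS, 1005, 969 and 1002 in BE(2)-C, 1320, 1204 and 1210 in NGP, 807, 857 and 863 in KELLY, and 686, 594 and 779 in SH-SY5Y. On this probe set NGP was above BE(2)-C, BE(2)-C above KELLY, and KELLY above SH-SY5Y without overlap, whereas on the brighter one NGP and BE(2)-C did not differ at the threshold (adjusted p = 0.481), nor did BE(2)-C and KELLY (0.0704). The differences of SK-N-AS from SH-SY5Y, NGP, BE(2)-C and KELLY were -1.64, -2.51, -2.18 and -1.94 on the deposited log2 scale and -2.98, -3.32, -2.38 and -3.06 on centred arrays, all called. The remaining 2 DNMT3A probe sets were dim, with line means from 33.3 to 69.0, and fell below the filter. With the mean of all 4 probe sets in place of the brightest, the deposited difference from SH-SY5Y was -0.43 and that from KELLY -0.85, neither of them called, while all 4 centred differences still were.

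**Figure D2:**
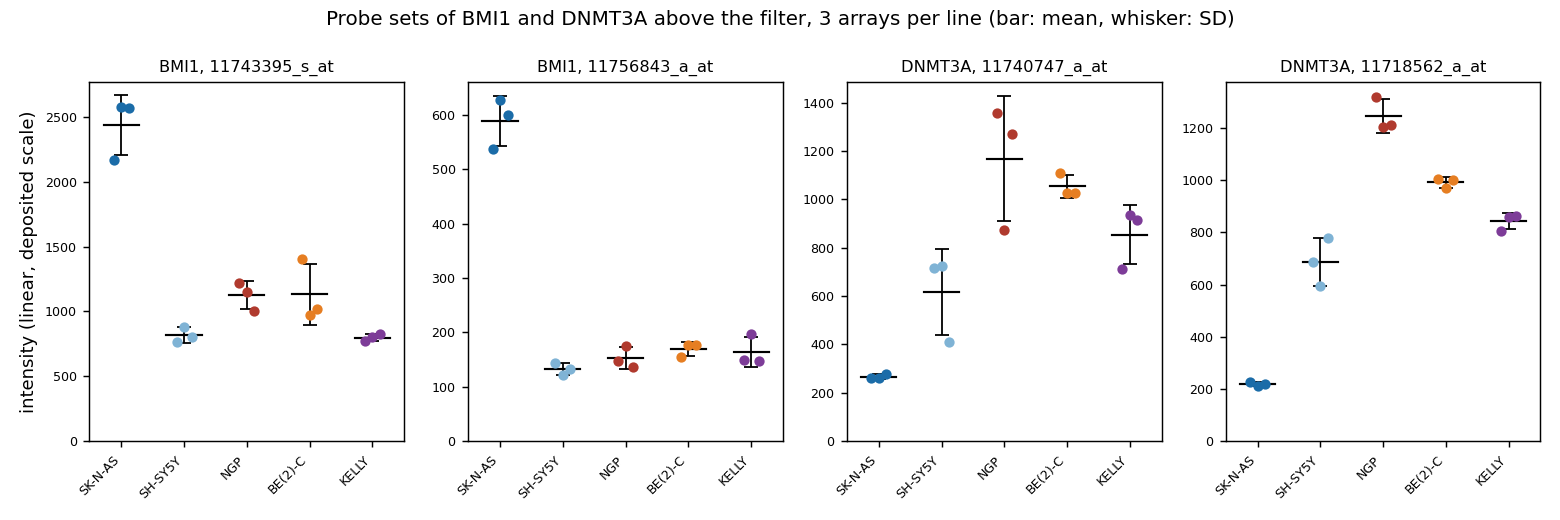
Deposited intensity (linear axis from 0) by cell line for the probe sets of DNMT3A and BMI1 that passed the filter. Points are single arrays, bars the mean and whiskers the SD of 3 arrays. Both DNMT3A probe sets are lowest in SK-N-AS and both BMI1 probe sets are highest there, with the dimmer BMI1 probe set at 538 to 628 in SK-N-AS and at 121 to 197 elsewhere.

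The promoter windows of DNMT3A and BMI1 are shown because these members differed most between lines on the deposited scale, and that of DNMT3B to set it beside its paralogue. Windows are RefSeq's for GRCh38.p14, from 250 bases before to 50 bases after an annotated start, printed 5′ to 3′ on the gene's strand. Capitals mark an E-box, CACGTG, the site that MYC family proteins are known to bind (the letters read the same on both strands). The DNMT3A window lies on the minus strand at chr2:25252266-25252565 with the E-box starting 75 bases before the gene start, and the BMI1 window on the plus strand at chr10:22320849-22321148 with it 70 bases before. The DNMT3B window, on the plus strand at chr20:32779602-32779901, holds none.
DNMT3A promoter: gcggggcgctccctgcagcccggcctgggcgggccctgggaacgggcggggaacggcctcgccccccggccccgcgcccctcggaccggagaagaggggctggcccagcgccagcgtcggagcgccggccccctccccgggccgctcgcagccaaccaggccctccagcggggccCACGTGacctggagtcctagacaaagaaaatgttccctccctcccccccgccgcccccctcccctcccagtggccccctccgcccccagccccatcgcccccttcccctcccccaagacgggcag
BMI1 promoter: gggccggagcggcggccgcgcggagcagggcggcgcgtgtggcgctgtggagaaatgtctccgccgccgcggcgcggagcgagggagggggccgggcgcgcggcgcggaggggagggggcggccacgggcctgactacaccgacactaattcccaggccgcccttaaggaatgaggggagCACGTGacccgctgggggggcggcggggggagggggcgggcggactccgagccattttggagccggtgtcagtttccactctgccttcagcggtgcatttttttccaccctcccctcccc
DNMT3B promoter: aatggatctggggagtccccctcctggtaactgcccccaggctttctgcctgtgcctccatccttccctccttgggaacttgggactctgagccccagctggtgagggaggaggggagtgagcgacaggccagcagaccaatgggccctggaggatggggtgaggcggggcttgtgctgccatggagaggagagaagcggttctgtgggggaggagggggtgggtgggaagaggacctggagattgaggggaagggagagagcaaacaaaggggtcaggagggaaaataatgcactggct
An E-box stood in 7.26% of 35116 windows and for 8.77% of genes with a window. All 10 members had windows, 21 in all, and 2 of the 10, DNMT3A and BMI1, held one. DNMT3A has 6 annotated windows, and the E-box lay in 2 overlapping ones. The members' windows held from 3 CG dinucleotides, at DNMT3B, to 65, at the second BMI1 start, against a median of 14 over all windows. A match describes letters only, and no binding was measured on these arrays.

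DNMT3B, the other methyltransferase that acts on unmethylated sites and is most used in early embryonic cells, was a dimmer gene with another order. Its arrays read 178, 230 and 182 in SK-N-AS, 335, 294 and 308 in BE(2)-C, 235, 241 and 242 in NGP, 176, 176 and 174 in KELLY, and 131, 104 and 132 in SH-SY5Y. BE(2)-C lay above and SH-SY5Y below every other line, while SK-N-AS and KELLY did not differ at the threshold (adjusted p = 0.155). The difference of SH-SY5Y from BE(2)-C, -1.35 (SE 0.10, adjusted p = 4.96e-12), was its 1 called difference on the deposited scale, and it was -0.22 on centred arrays. After centring, SK-N-AS was below NGP by 1.11 on the log2 scale (adjusted p = 1.04e-08), again 1 called difference. With the mean of its probe sets the first was -0.75 and the second -0.91, which ends both calls. Of its 11 probe sets 6 passed the filter, and 5 of these were highest in BE(2)-C. The sixth read highest in SK-N-AS, with line means of 217 there and 199 in BE(2)-C, so its probe sets disagree on the order of these lines. On centred arrays that probe set had 0 called pairs. Another had 4, SK-N-AS below SH-SY5Y, NGP, BE(2)-C and KELLY by 1.02, 1.30, 1.01 and 1.15 on the log2 scale. The rest of the dimmer probe sets above the filter had 2 each, SK-N-AS below NGP and below KELLY. The 5 dim probe sets had line means between 18.5 and 43.5.

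TET1, the dioxygenase that starts the removal of DNA methylation, was highest in NGP. It read 145, 156 and 163 in SK-N-AS, 303, 271 and 291 in BE(2)-C, 385, 425 and 339 in NGP, 229, 231 and 269 in KELLY, and 202, 155 and 188 in SH-SY5Y. SK-N-AS and SH-SY5Y overlapped, and KELLY, BE(2)-C and NGP followed upward without overlap. NGP exceeded SK-N-AS by 1.30 (SE 0.10, adjusted p = 1.57e-11) and SH-SY5Y by 1.08 (adjusted p = 1.03e-09) on the deposited log2 scale. On centred arrays TET1 was lower in SK-N-AS than in SH-SY5Y, NGP, BE(2)-C and KELLY by 1.55, 2.11, 1.10 and 1.76 on the log2 scale (SE 0.08, adjusted p from 5.5e-14 to 7.72e-10), and higher in NGP than in BE(2)-C by 1.02. The excess of NGP over SH-SY5Y was then 0.56. On the deposited scale it also fell under the fold threshold without SH-SY5Y array 2 or NGP array 2, at -0.97 and -0.999 for SH-SY5Y minus NGP, and the call of NGP above BE(2)-C on centred arrays ended without NGP array 2 or BE(2)-C array 2, at 0.97 and 0.98. With the mean of both TET1 probe sets the deposited differences of SK-N-AS and SH-SY5Y from NGP were -0.87 and -0.97, and on centred arrays those of SK-N-AS and NGP from BE(2)-C were -0.83 and 0.86, which ends these calls. A second, dimmer TET1 probe set averaged 137 ± 4.85 in NGP, 124 ± 14.5 in BE(2)-C, 116 ± 8.96 in KELLY, with SK-N-AS at 100.3 ± 9.15 and SH-SY5Y at 75.2 ± 6.72. It had 0 of 10 pairs called on the deposited scale and 2 on centred arrays, SK-N-AS below NGP by 1.27 and below KELLY by 1.32, and it put SH-SY5Y below SK-N-AS on the deposited scale, against the brighter one.

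DNMT1, the maintenance methyltransferase, and UHRF1, its partner at replicated DNA, were both highest in BE(2)-C on the deposited scale. DNMT1 read 4874, 4514 and 5297 in SK-N-AS, 6578, 6405 and 6283 in BE(2)-C, 3956, 3813 and 3677 in NGP, 2711, 3022 and 2985 in KELLY, and 2618, 2437 and 2787 in SH-SY5Y. UHRF1 read 1881, 1898 and 2150 in SK-N-AS, 3623, 3405 and 3244 in BE(2)-C, 2064, 2320 and 2195 in NGP, 1202, 1285 and 1200 in KELLY, and 1329, 1330 and 1663 in SH-SY5Y. BE(2)-C lay above every other line for both genes without overlap. SH-SY5Y and KELLY were the lowest lines. On the brightest probe set they overlapped for DNMT1 (adjusted p = 0.0683), while for UHRF1 KELLY lay below SH-SY5Y. The second DNMT1 probe set put SH-SY5Y below KELLY by 0.60 on the deposited log2 scale (limma adjusted p = 0.00297). It had 4 called pairs on that scale, which added SK-N-AS above SH-SY5Y by 1.26 and NGP below BE(2)-C by 1.17, and 0 on centred arrays. The second UHRF1 probe set read 261 in KELLY and 239 in SH-SY5Y, which did not differ at the threshold (adjusted p = 0.232). SH-SY5Y was below BE(2)-C by 1.30 for DNMT1 (SE 0.07, adjusted p = 2.37e-14) and by 1.26 for UHRF1 (SE 0.09, adjusted p = 7.38e-13) on the log2 scale, and KELLY was below BE(2)-C by 1.15 (3.58e-13) and 1.48 (4.06e-14). On centred arrays none of these 4 differences was called. They became -0.17 and -0.12 for SH-SY5Y minus BE(2)-C and 0.23 and 0.56 for BE(2)-C minus KELLY. On the brightest probe sets DNMT1 had the narrowest centred span among the members, 0.60 on the log2 scale from its highest to its lowest line, against a median of 1.08 over all tested genes. On its second probe set SK-N-AS lay 0.82 below BE(2)-C on centred arrays.

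EZH2, the catalytic subunit of PRC2 in dividing cells, was highest in KELLY. Its arrays read 921, 1044 and 1093 in SK-N-AS, 1097, 1053 and 1023 in BE(2)-C, 560, 626 and 637 in NGP, 1377, 1365 and 1183 in KELLY, and 582, 632 and 589 in SH-SY5Y. All KELLY arrays lay above all others, SK-N-AS and BE(2)-C overlapped (adjusted p = 0.548), and SH-SY5Y and NGP overlapped (0.877). KELLY exceeded SH-SY5Y by 1.12 (SE 0.08, adjusted p = 1.45e-11) and NGP by 1.10 (1.7e-11) on the deposited log2 scale. On centred arrays KELLY exceeded SK-N-AS by 1.47, NGP by 1.40 and BE(2)-C by 1.22 (SE 0.09, adjusted p from 3.09e-11 to 8.03e-10), and SH-SY5Y by 0.90, just under the fold threshold. A second EZH2 probe set was also brightest in KELLY, at 468, followed by SK-N-AS at 390, BE(2)-C at 354, SH-SY5Y at 211 and NGP at 165. The difference between KELLY and NGP was thus called on both scales. With the mean of the 3 probe sets it was -0.98 for NGP minus KELLY and -0.86 for SH-SY5Y minus KELLY on the deposited scale, both just under the fold threshold.

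EZH1, the catalytic subunit that persists in non-dividing cells, had its peak in NGP. It read 166, 147 and 197 in SK-N-AS, 220, 200 and 190 in BE(2)-C, 341, 285 and 308 in NGP, 189, 200 and 173 in KELLY, and 127, 91.7 and 105 in SH-SY5Y. On this probe set NGP lay above and SH-SY5Y below all other lines, and the remaining lines overlapped. SH-SY5Y was below NGP by 1.53 on the log2 scale (SE 0.12, adjusted p = 1.23e-11) and by 1.01 on centred arrays (1.43e-07). Centring added SK-N-AS below NGP by 1.69 (adjusted p = 7.44e-11), SK-N-AS below KELLY by 1.26 (4.69e-09) and NGP above BE(2)-C by 1.23 (9.92e-09). Leaving out SH-SY5Y array 2 or 3 or NGP array 1 or 3 took the centred difference of SH-SY5Y from NGP just under the fold threshold (-0.94, -0.98, -0.95 and -0.99). With the mean of the probe sets that difference was -0.61, which also ends the call. A second, dimmer EZH1 probe set averaged 108 in NGP, 76.3 in KELLY, 67.2 in BE(2)-C, with SH-SY5Y at 49.5 and SK-N-AS at 46.3. On the deposited scale SH-SY5Y and SK-N-AS did not differ there at the threshold (limma adjusted p = 0.529), and SK-N-AS was called below NGP by 1.19. The difference of SH-SY5Y from NGP was -1.09 on the deposited scale and -0.57, not called, on centred arrays. This probe set had 5 called pairs on centred arrays. SK-N-AS was below SH-SY5Y by 1.43, below NGP by 2.00 and below KELLY by 1.80. BE(2)-C was below NGP by 1.27 and below KELLY by 1.07. On the deposited scale NGP thus had the highest EZH1 and, with SH-SY5Y, the lowest EZH2.

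The promoter windows of the catalytic pair are printed to set the paralogues side by side, with capitals for an E2F form, a site of the factors that drive S-phase genes. The forms searched were TTTCCCGC, TTTGGCGC, TTTCGCGC and TTTGCCGC on both strands, none of which overlaps the E-box letters. The EZH2 window is chr7:148884242-148884541 on the minus strand, with the match 1 base past the gene start, and the EZH1 window is chr17:42744991-42745290 on the minus strand, with it 115 bases before.
EZH2 promoter: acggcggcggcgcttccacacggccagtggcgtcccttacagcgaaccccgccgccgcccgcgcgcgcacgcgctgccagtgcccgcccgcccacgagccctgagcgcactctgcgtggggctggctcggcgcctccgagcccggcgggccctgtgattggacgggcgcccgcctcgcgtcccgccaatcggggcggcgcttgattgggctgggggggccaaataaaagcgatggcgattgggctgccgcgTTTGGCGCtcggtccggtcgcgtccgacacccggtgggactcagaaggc
EZH1 promoter: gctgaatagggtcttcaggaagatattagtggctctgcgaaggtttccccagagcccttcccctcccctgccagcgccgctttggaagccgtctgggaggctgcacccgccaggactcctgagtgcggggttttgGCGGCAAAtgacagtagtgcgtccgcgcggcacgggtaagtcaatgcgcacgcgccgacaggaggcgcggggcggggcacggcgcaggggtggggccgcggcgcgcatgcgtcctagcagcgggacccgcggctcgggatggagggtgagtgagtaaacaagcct
These forms stood in 3.31% of all windows and for 3.99% of genes with a window. Among the members 5 of 10 held one, EZH2, EZH1, SUZ12, DNMT1 and UHRF1. The windows of this pair differ in CG dinucleotides, with 46 for EZH2 and 30 for EZH1.

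SUZ12, the scaffold subunit of PRC2, was bright in BE(2)-C and NGP. Its arrays read 1078, 1177 and 1392 in SK-N-AS, 2881, 2885 and 2815 in BE(2)-C, 2365, 2263 and 2188 in NGP, 1210, 1343 and 1226 in KELLY, and 936, 970 and 1086 in SH-SY5Y. BE(2)-C and NGP lay above the other lines and apart from each other, and SK-N-AS and KELLY overlapped (adjusted p = 0.514). On the deposited log2 scale BE(2)-C exceeded SK-N-AS by 1.24 (SE 0.09, adjusted p = 1.39e-12), SH-SY5Y by 1.52 (1.27e-14) and KELLY by 1.18 (2.22e-12), and NGP exceeded SH-SY5Y by 1.19 (4.21e-12). On centred arrays SUZ12 was lower in SK-N-AS than in SH-SY5Y, NGP, BE(2)-C and KELLY by 1.05, 1.72, 1.44 and 1.17 on the log2 scale (adjusted p from 1.9e-13 to 2.54e-10), so that it set SK-N-AS apart. Without SK-N-AS array 1 the difference from SH-SY5Y was -0.98, and with the mean of its probe sets -0.85, which ends that call. The mean of the probe sets put the centred difference from KELLY at -0.996, which ends that call too. On the dimmer SUZ12 probe sets the centred difference of SK-N-AS from SH-SY5Y was -0.82 and -0.87, neither called. On the brightest probe set the centred excess of BE(2)-C over SH-SY5Y and KELLY fell to 0.39 and 0.27. All 3 SUZ12 probe sets passed the filter and put BE(2)-C first and NGP second.

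EED, the subunit that binds the methylated histone and stimulates the complex, had the narrowest centred span of the 4 PRC2 members, 0.95 on the log2 scale. It read 887, 842 and 975 in SK-N-AS, 1648, 1491 and 1399 in BE(2)-C, 809, 806 and 789 in NGP, 747, 769 and 770 in KELLY, and 649, 578 and 684 in SH-SY5Y. BE(2)-C lay above and SH-SY5Y below all others, while SK-N-AS and NGP (adjusted p = 0.0568) and NGP and KELLY (0.43) did not differ at the threshold. The difference of SH-SY5Y from BE(2)-C was -1.25 (SE 0.08, adjusted p = 2.58e-13) on the deposited scale and -0.11 (0.0614) on centred arrays, where 0 of 10 pairs was called for the brightest probe set. The other 2 EED probe sets that passed the filter were also highest in BE(2)-C, at 1257 and 522, and lowest in SH-SY5Y, at 513 and 166. On centred arrays 1 of them had 2 called pairs, SK-N-AS below BE(2)-C by 1.07 and below KELLY by 1.05 on the log2 scale, and the other had 0.

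BMI1, the RING finger partner of the PRC1 ubiquitin ligase, was highest in SK-N-AS on the deposited scale. It read 2171, 2580 and 2568 in SK-N-AS, 1404, 970 and 1018 in BE(2)-C, 1216, 1153 and 1004 in NGP, 768, 800 and 823 in KELLY, and 764, 882 and 802 in SH-SY5Y. Every SK-N-AS array lay above every other array, 1 BE(2)-C array was well above its other arrays, and NGP did not differ at the threshold from BE(2)-C (adjusted p = 0.952), nor SH-SY5Y from KELLY (0.799). SK-N-AS exceeded SH-SY5Y by 1.58 (SE 0.11, adjusted p = 6.07e-13), NGP by 1.12 (7.22e-10), BE(2)-C by 1.12 (1.1e-09) and KELLY by 1.61 (4.81e-13) on the log2 scale, or 2.98-fold, 2.17-fold, 2.18-fold and 3.05-fold. BMI1 was 1 of 10 members higher in 1 line than in all others by called differences, against 18.5% of all tested genes. On centred arrays the 4 differences were 0.24 (adjusted p = 0.0503), 0.30 (0.017), 0.92 (5.07e-07) and 0.49 (0.000462), none of them called.

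The second BMI1 probe set set SK-N-AS further apart. It read 538, 628 and 599 in SK-N-AS, 154, 176 and 176 in BE(2)-C, 147, 175 and 136 in NGP, 148, 197 and 147 in KELLY, and 144, 121 and 133 in SH-SY5Y. SK-N-AS lay above every other line, and among the others SH-SY5Y lay below BE(2)-C and KELLY without overlap while the remaining ranges overlapped. Its excess over SH-SY5Y, NGP, BE(2)-C and KELLY was 2.14, 1.94, 1.80 and 1.85 on the deposited log2 scale and 0.81, 1.13, 1.59 and 0.73 on centred arrays, where those over NGP and BE(2)-C were called. The size of the BMI1 difference therefore depended on the probe set as well as on the scale.

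**Figure D3:**
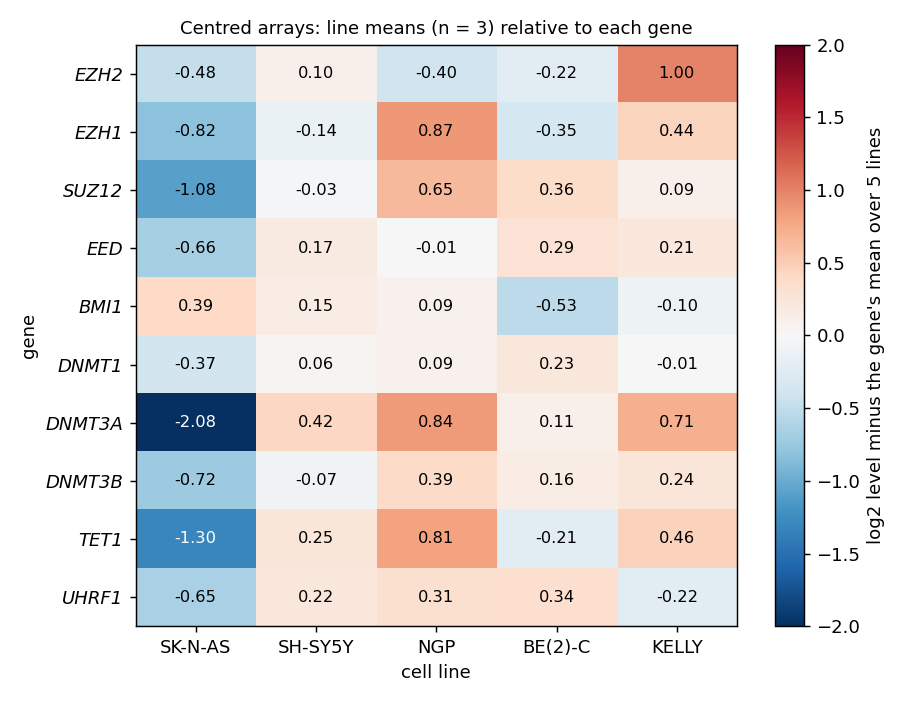
Mean log2 level of each gene in each line on centred arrays, relative to the gene's mean over the 5 lines. SK-N-AS is lowest for 9 of the 10 genes, from -0.37 for DNMT1 to -2.08 for DNMT3A, and KELLY is the highest line for EZH2.

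Of the 100 combinations of a member with a pair of lines, 23 were called on the deposited scale and 21 on centred arrays, and 8 were called on both with the same sign. These 8 were the 4 differences of DNMT3A between SK-N-AS and the other lines, SUZ12 between SK-N-AS and BE(2)-C, TET1 between SK-N-AS and NGP, EZH1 between SH-SY5Y and NGP, and EZH2 between NGP and KELLY. A member was called in a median of 2 pairs on the deposited scale, against 4 for all tested genes, and in 2 on centred arrays, against 1. The median span over the lines was 1.42 for the members and 1.71 for all tested genes on the deposited scale, and 1.29 and 1.08 on centred arrays.

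On the deposited scale, fewer members than genes in general were called in 3 of the 4 pairs that involve SK-N-AS, a difference that was not tested. SK-N-AS and SH-SY5Y differed in 2 of 10 members where 68.5% of all tested genes were called, and SK-N-AS and NGP in 3 where 43.9% were. SK-N-AS and BE(2)-C differed in 3 members against 25.6% of all genes, and SK-N-AS and KELLY in 2 against 54.4%. On centred arrays the same 4 pairs had 3, 5, 3 and 5 called members against 25.9%, 30.1%, 25.1% and 29.1% of all genes. The median centred difference of SK-N-AS from SH-SY5Y, NGP, BE(2)-C and KELLY was -0.76, -1.04, -0.91 and -1.07 over the members. Over all tested genes it was -0.11, -0.11, -0.05 and -0.13.

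Among the other 4 lines, SH-SY5Y and BE(2)-C had the highest count on the deposited scale and none after centring. They differed in 5 of 10 members against 56.1% of all genes, and on centred arrays in 0 against 16.5%, with 5 of 10 at an adjusted p under 0.05 and 7 at an unadjusted one by limma at any fold. SH-SY5Y and NGP differed in 3 members against 23% on the deposited scale and in 1 against 16.2% after centring. SH-SY5Y and KELLY differed in 1 against 15.7%, and in 0 against 14.9%, with 6 members at an unadjusted p under 0.05 by limma at any fold. The 3 amplified lines also differed among themselves. NGP and BE(2)-C differed in 0 members against 31.4% of genes on the deposited scale, with 8 of 10 at an unadjusted p under 0.05 by limma, and in 2 against 19.3% after centring, EZH1 and TET1. NGP and KELLY differed in 1 member, EZH2, against 16.1%, and in 1 against 14.1%. BE(2)-C and KELLY differed in 3 members against 42.5%, and in 1 against 17.4%.

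**Figure D4:**
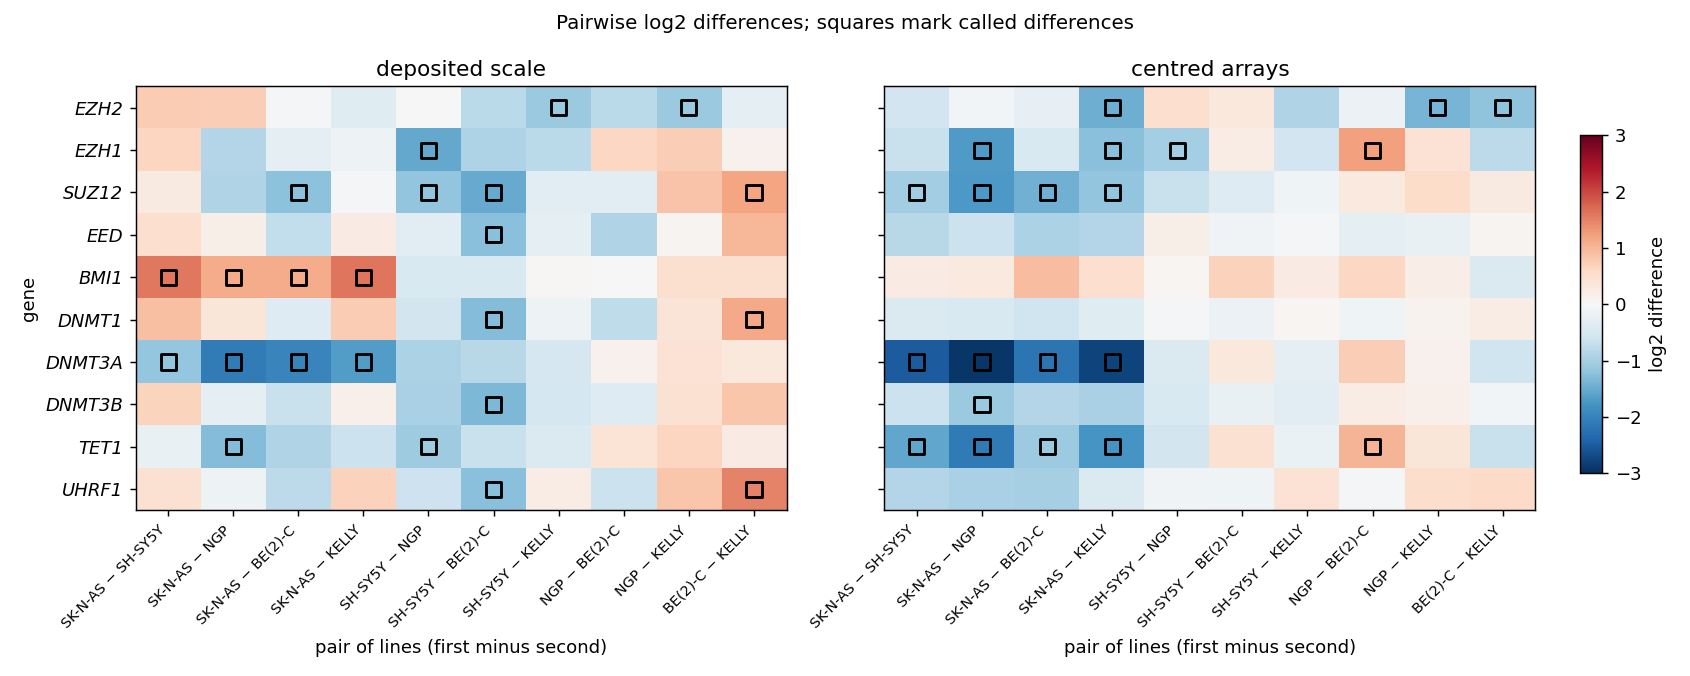
Log2 difference of the first from the second line, as colour, for each gene and pair of lines on the deposited scale and on centred arrays. Squares mark called differences. Between SH-SY5Y and BE(2)-C 5 genes are called on the deposited scale and 0 on centred arrays, and the DNMT3A calls with SK-N-AS are in both.

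SK-N-AS was the line in which the members stood lowest relative to its other genes. On centred arrays it had the lowest level for 9 of 10 members, where 32.7% of all tested genes were lowest in SK-N-AS. Of the 40 differences that involve it, 16 were called lower and 0 higher. In the pairs with SK-N-AS, 25.1% to 30.1% of all tested genes were called in either direction. For EZH2 among the 9, SK-N-AS and NGP did not differ at the threshold (adjusted p = 0.447), and the second EZH2 probe set put SK-N-AS above NGP by 0.45 (0.0242) on centred arrays. The second DNMT1 probe set did not separate SK-N-AS from SH-SY5Y at the threshold there (-0.07, limma adjusted p = 0.726). Nor did a dimmer EED probe set separate it from NGP (-0.07, 0.743), or a dimmer DNMT3B probe set from BE(2)-C (-0.08, 0.453). The tenth was BMI1, which was highest there. SUZ12, DNMT3A and TET1 were lower in SK-N-AS than in each other line by called differences on centred arrays, which is 3 of 10 members against 10% of all genes for some line, and 0 were higher against 10.6%. Relative to a gene's mean over the lines, SK-N-AS stood at -2.08 for DNMT3A, -1.30 for TET1, -1.08 for SUZ12, -0.82 for EZH1, -0.72 for DNMT3B, -0.66 for EED, -0.65 for UHRF1, -0.48 for EZH2 and -0.37 for DNMT1 on the centred log2 scale. NGP had the highest centred level for 5 members and BE(2)-C for 3, where 20.4% and 18.1% of all tested genes were highest in these lines. On the deposited scale, where SK-N-AS is the brightest line, 54.6% of all tested genes were highest in SK-N-AS but 1 of 10 members was, and SH-SY5Y was lowest for 6 members against 56.4% of genes.

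No member separated the MYCN-amplified lines from the other lines. A gene was said to do so when all 6 contrasts between an amplified and another line were called with one sign, which held for 0 of 10 members in either direction. The background was 0.684% of tested genes with higher levels and 0.346% with lower levels in the amplified class on the deposited scale, and 0.558% in each direction on centred arrays. With so low a background, 0 of 10 does not set the members apart from genes in general. With limma on the 5 line means, 0 members were called on either scale, and 0 had an unadjusted p under 0.05. Of the 12721 tested genes, 646 did on the deposited scale and 786 on centred arrays, so few members would be expected at that share. At an unadjusted p under 0.05 and any fold by limma over arrays, DNMT3A and TET1 were higher in the amplified line of all 6 contrasts on the deposited scale, where 4.86% of genes had one sign throughout, and DNMT3B was on centred arrays, where 11.6% of genes had. The class difference of DNMT3A was 1.34 and that of TET1 0.84 on the log2 scale. Both had, in a two-sided exact permutation of the 5 lines, p = 0.1, the smallest that 3 against 2 lines can give, as did EZH1 with a difference of 0.76. For SUZ12 the difference was 0.88 (exact permutation p = 0.2), for EZH2 0.27 (0.5), and for BMI1 -0.49 (0.4). On centred arrays the exact permutation p was 0.1 for SUZ12 and DNMT3B.

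The wider lists of the same systems were read by how many of their genes set 1 line apart from all others, beside 18.5% of all tested genes higher and 9.53% lower on the deposited scale and 10.6% and 10% on centred arrays. The shares of these lists were not tested against that background, and those of PRC2 and PRC1 genes higher in 1 line lie near it. Of 15 PRC2 core and accessory genes, 2 were higher in 1 line on the deposited scale, RBBP7, a histone-binding subunit at 3904 in SK-N-AS against 557 to 1840, and EZHIP, an inhibitor of PRC2, at 83.7 against 25.0 to 36.4. EZHIP passed the filter on dim genes through SK-N-AS alone, so a difference was built into its selection. On centred arrays neither RBBP7 nor EZHIP was called and SUZ12 was the 1 gene lower. Of 23 PRC1 genes tested, 6 were higher and 1 lower on the deposited scale, and 2 higher and 2 lower on centred arrays. PCGF5, a relative of BMI1 in variant PRC1, stood at 709 ± 56.1 in SK-N-AS and at 82.8 to 159 in the other lines, and KDM2B, which brings variant PRC1 to unmethylated CpG islands, at 5118 ± 168 in NGP and at 455 to 1209 elsewhere. CBX7, a chromodomain subunit, stood at 357 in SK-N-AS against 53.0 to 84.4. AUTS2, a partner of PCGF5 in variant PRC1, stood at 249 ± 10.7 in SK-N-AS and at 722 to 2109 elsewhere. PCGF5, KDM2B and AUTS2 were called on both scales, and CBX7 on the deposited scale.

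Among genes that remove Polycomb marks, 0 of 6 set a line apart on either scale, with ASXL3 and KDM6A the most variable at deposited spans of 2.39 and 1.96. Of 12 genes of DNA methylation placement 1 was lower, DNMT3A itself, on both scales. Of 7 genes listed with its removal, CXXC5 was lower in NGP on both scales, at 418 ± 33.9 against 1357 to 2926. TET1 and CXXC4, which binds unmethylated CpG sites, were lower in SK-N-AS on centred arrays. CXXC4 and CXXC5 are not themselves enzymes that remove methylation. Of 6 readers of methylated CpG sites, ZBTB38 was lower in NGP on centred arrays, at a deposited 106 against 181 to 1860. None of these lists held a gene that separated the MYCN classes on either scale. The lists of PRC2, PRC1, methylation placement and methylation removal include the members of those systems, so their medians are not separate from that of the members. The median centred level relative to the mean of the lines was -0.69 in SK-N-AS for the members, -0.54 for PRC2, -0.40 for PRC1, -0.56 for methylation placement and -0.62 for its removal, against -0.08 for all tested genes. It was 0.05 for the readers and -0.11 for the removal of Polycomb marks. For 20 proliferation genes it was -0.34 in SK-N-AS and 0.23 in BE(2)-C, with 1 gene higher and 2 lower in 1 line on the deposited scale, and their part in the members' levels was not tested.

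**Figure D5:**
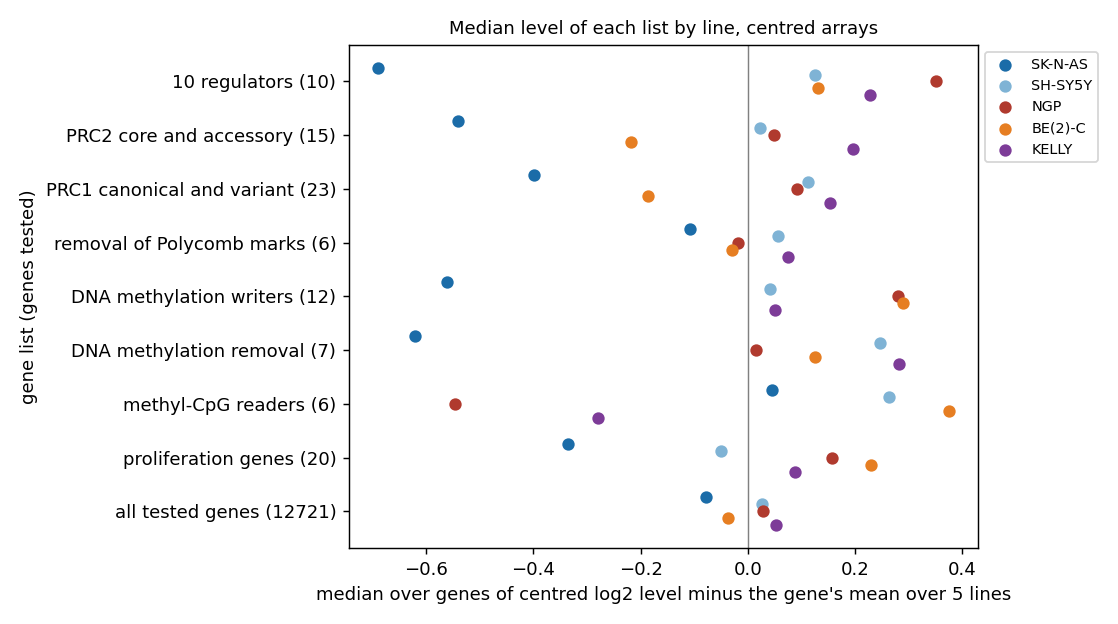
Median centred log2 level in each line, relative to a gene's mean over the lines, for the members and the wider lists. SK-N-AS lies at -0.69 for the members and -0.08 for all tested genes, with the PRC2 and DNA methylation lists, which include members, between.

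The genes whose centred profile over the 5 lines came nearest to a member's were found by the root mean square difference of the line means, as a description over 5 points. For TET1 the nearest was MBTD1 at 0.017 on the log2 scale, followed by CTIF at 0.085. The nearest to EZH2 were ZSCAN30 at 0.066 and SUCO at 0.090, to SUZ12 EMSY at 0.071 and PRMT2 at 0.074, and to EZH1 SNORA21 at 0.059 and H4C2 at 0.072. RBMX lay at 0.046 from DNMT3B, CLUH at 0.060 and RRM2, a subunit of ribonucleotide reductase, at 0.061. The closest to DNMT3A was SLC16A10, at 0.16. Among the members the closest were EED and DNMT1 at 0.18, DNMT1 and UHRF1 at 0.21, and EED and DNMT3B at 0.22.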

How the data were processed

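Total RNA of 5 human neuroblastoma lines was measured on 15 arrays. Per the labels' protocols, cells were counted, ERCC external controls were added at lysis, and biotin-labelled RNA was prepared by a 3' in vitro transcription kit. The values are the authors' deposited intensity values on a linear scale, 1 per probe set and array. The submitters' processing notes name MAS5. Its settings, and whether the ERCC controls served for scaling, are not given in the sources. Of 49494 probe sets, 45277 named 1 gene and 202 were controls. The brightest probe set stood for a gene. A gene was tested where its highest line mean reached the overall median (a log2 value of 6.35, or intensity 80.6). With limma 3.58.1 in R 4.3.3, a model of line means with an intensity-dependent prior was fitted to log2(intensity + 1) of all 12721 tested genes, and p-values were adjusted over all of them within each of 10 pairs of lines. Folds of dim genes are understated on this scale, and the number of arrays limits the precision. Centred arrays had their median over the tested genes made equal. The calls were checked on simulated data. Genes outside the 10 members were named by a rule, which took up to 3 genes of a list that set a line apart, with the largest smallest difference, or else the 2 with the widest span, and the 3 nearest profiles. It was applied on either scale. The members and lists were chosen with earlier results of these data known. Alternatives were other scalings, filters, pseudocounts, probe set rules, a replicate block and leaving out each array. Replicate numbers did not pair the arrays. Promoter windows and names came from RefSeq tables of GRCh38.p14. No protein sequence was used here.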

Additional observations from a re-analysis of the deposited data

How the results depend on the processing

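The deposited scale and the centred arrays gave similar totals but other calls. Of the 23 called differences, 8 were called with the same sign on centred arrays, 8 after quantile normalization and 9 after loess between arrays, while 22 were with equal ERCC medians and 16 when a gene's probe sets were averaged. All 23 were without a filter, with a pseudocount of 16, without _s_at and _x_at probe sets, with a fit over all probe sets and with a constant prior. Loess and the centred results below were chosen after seeing the data. Under centring, quantile and loess, the count of members called changed to 5, 6 and 5 for SK-N-AS against NGP and for SK-N-AS against KELLY, to 1 each for SH-SY5Y against NGP, to 0 each for SH-SY5Y against BE(2)-C and against KELLY, to 2 each for NGP against BE(2)-C and to 1 each for BE(2)-C against KELLY. With the mean of probe sets it was 1 for SK-N-AS against KELLY and 0 for SH-SY5Y and for NGP against KELLY, and 1 member set a line apart on each scale. On centred arrays this setting gave 0 for SH-SY5Y against NGP and 1 for NGP against BE(2)-C. The sign turned for EED in SH-SY5Y against BE(2)-C under quantile normalization (0.039) and for UHRF1 in SH-SY5Y against BE(2)-C under quantile normalization (0.021) and loess (0.0076). The cause was not tested.

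Leaving out each array gave 23 to 26 called differences on the deposited scale and 20 to 23 on centred arrays. SH-SY5Y against NGP ranged from 3 to 5 members, with 5 without SH-SY5Y replicate 1, and from 0 to 1 on centred arrays. NGP against BE(2)-C ranged from 1 to 2 on centred arrays, and members that set a line apart from 2 to 3 there. Leaving out arrays changed no class count, which stayed at 0. Same-numbered arrays had deviations correlated from -0.23 to 0.23, so the numbers were not taken as pairs. With the replicate block 23 of 23 differences were called on the deposited scale and 21 of 21 on centred arrays. Low signal limits DNMT3B, TET1 and EZH1, whose levels lie nearest to the filter.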

Other observations

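Several genes that these systems are known to silence differed widely between lines. CDKN2A, the INK4 locus gene that BMI1 is known to repress, stood at 5640 ± 357 in SK-N-AS, 4370 ± 420 in NGP, 1714 ± 56.4 in BE(2)-C, 161 ± 6.89 in KELLY and 76.3 ± 12.1 in SH-SY5Y (SD, n = 3 each). CDKN2B, its neighbour, stood at 614 ± 39.4 in SK-N-AS and at 10.3 to 63.7 in the other lines, and was called higher in SK-N-AS than in each on both scales. SK-N-AS thus had the highest deposited mean for BMI1, CDKN2A and CDKN2B, as it did for 54.6% of all tested genes. On centred arrays the CDKN2A mean was highest in NGP, at 2.43 relative to its mean over the lines, against 1.99 in SK-N-AS. No centred BMI1 difference was called on the brightest probe set. A link between BMI1 and these genes was not tested. CDKN2B passed the filter on dim genes through SK-N-AS alone. Of 7 genes linked to Polycomb silencing in neuroblastoma or at the INK4 locus, 2 were higher and 3 lower in 1 line than in all others on the deposited scale, where 18.5% of all tested genes were higher and 9.53% lower. They include NGFR, higher in NGP at 477, and CASZ1, lower in SH-SY5Y at 60.0. On centred arrays 3 were higher and 1 lower, beside 10.6% and 10% of all tested genes.

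Of 13 germline genes that promoter methylation is known to silence in somatic cells, 8 passed the filter and 5 were dim in every line. On each scale 5 of the 8 were higher and 2 lower in 1 line than in all others. Among all tested genes 18.5% were higher and 9.53% lower on the deposited scale, and 10.6% and 10% on centred arrays. MAGEB2 stood at 2922, MAGEC1 at 981 and MAGEC2 at 956 in SK-N-AS, and at 18.4 to 45.8 in the other lines, so they passed the filter through SK-N-AS alone and a difference was built into their selection. MAGEA1 stood at 658 in KELLY and 186 in SK-N-AS. MAGEA10 and TEX15 also had their highest means in KELLY, at 547 and 559. TEX15 and PRAME were called lower in BE(2)-C than in every other line on both scales, at 44.8 and 255. DNA methylation was not measured, and a link between these genes and the regulators was not tested.

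Within lines, the brighter DNMT3A probe set read 409 on 1 SH-SY5Y array against 714 and 723, and 874 on 1 NGP array against 1359 and 1270. The second DNMT3A probe set read 779 and 1204 on these arrays.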
